A study of Mus musculus with 2 samples.

Results

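Zinc-finger genes whose symbol starts with Zfp, Zbtb, Zscan or Zkscan followed by a number were followed through a map of N6-methyladenosine (m6A) in early mouse retinal organoids. The rule reads the symbol alone and no measured value, though it was set with earlier results of these data known. Of 8057 named genes listed in replicate 2, 210 met the rule, and of 5699 listed in replicate 1, 105 did. Together 214 such genes were listed, 101 of them in both libraries. Symbols that continue with other letters, such as Zfp36l1, Zfp36l2, Zfpl1 and Zfpm1, fall outside the rule.

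The study asks where m6A made by the methyltransferase METTL3 lies in the developing retina. Poly(A) RNA of Rx:GFP retinal organoids, grown from a mouse stem cell line with a fluorescent reporter of the eye-field gene Rax, was read as native RNA on nanopores. The organoids were of WT genotype and had been differentiated with AGN at 0.1 µM for 6 days, and both libraries carry the same batch label. They form 1 group of 2 replicates with no second condition, and no label says whether they came from separate cultures, so the spread between them may be technical. Rax itself was listed in both libraries, with up to 61 reads in replicate 1 and 80 in replicate 2, and none of 8 markers of undifferentiated stem cells was listed, Zfp42 among them.

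Each C2H2 zinc finger is a short loop folded around a zinc ion, and tandem fingers read DNA or RNA base by base. Many Zfp proteins carry a KRAB domain, which recruits Trim28 and with it heterochromatin enzymes to silence transposable elements, and the genes lie in clusters that have expanded by duplication. Zbtb proteins pair a BTB domain, which dimerises and binds corepressors, with their fingers, while Zscan and Zkscan proteins have a SCAN dimerisation domain. The modification m6A marks messenger RNA for reader proteins that alter its decay, splicing or translation.

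The deposited tables hold 4 motifs of 5 bases, given here in DNA letters 5′ to 3′ because every fraction below is read within 1 of them. In replicate 2, GGACA made up 30.4% of the zinc-finger positions, AGACT made up 28.1%, GGACT made up 26.4% and GGACC made up 15.1%. In this context the adenosine before the C carries the methyl group.

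A position is a listed base of a transcript, with a coverage, the count of reads over it, and a fraction modified between 0 and 1. Positions are counted from the transcript start. A site is a position with at least 20 reads in its library, and positions with 5 to 19 reads are given apart. Whether a position lies in coding sequence or in an untranslated region was not analysed here.

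The zinc-finger genes were listed at low coverage. Replicate 2 gave 1394 positions on 260 of their transcripts, of which 176 were sites, in 43 genes, and 1218 had 5 to 19 reads. Replicate 1 gave 432 positions, of which 23 were sites, in 7 genes, and 409 had 5 to 19 reads. Thus 20.5% of the 210 genes had a site in replicate 2, against 48.6% of all 8057 listed genes, and 6.67% of the 105 had one in replicate 1, against 35.6% of all 5699. The lower share held in both libraries.

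Median coverage of a position was 7 reads in replicate 1 and 9 in replicate 2 for the zinc-finger genes, and 10 and 12 reads for other genes. A zinc-finger gene's best covered position had a median of 7 reads in replicate 1 and 10 in replicate 2, against 13 and 19 in other genes. In replicate 2, 95 of the 210 genes (45.2%) had no position with as many as 10 reads. The highest coverage of any zinc-finger position was 78 reads in replicate 1 and 200 in replicate 2, both in Zfp706. Near the site minimum, 12 of the genes peaked at 18 or 19 reads in replicate 2 and 10 at 20 or 21.

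**Figure D1:**
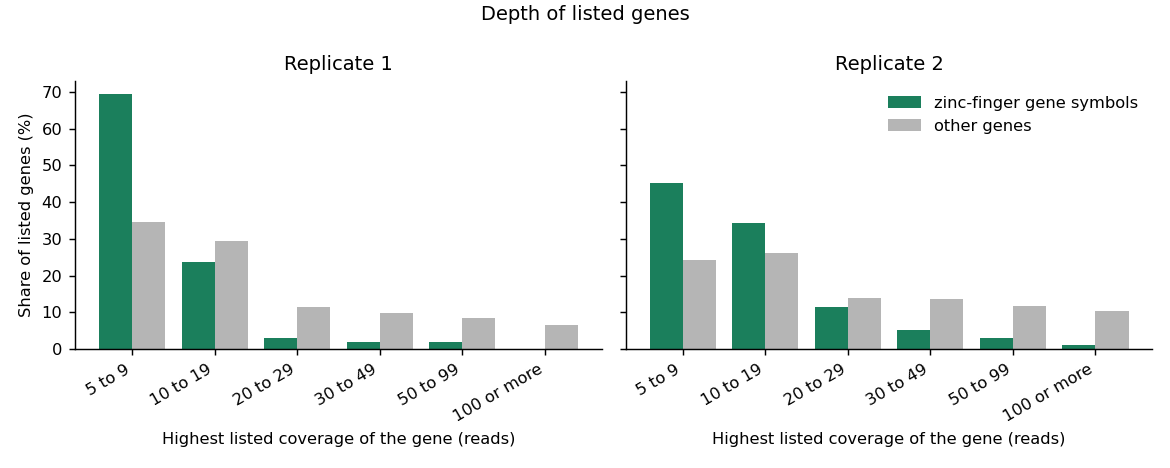
Share of listed genes (%) by the highest coverage of any of their positions (reads), for zinc-finger gene symbols (green) and other genes (grey), in each replicate. The classes below 20 reads hold most zinc-finger genes, 45.2% in the class of 5 to 9 reads alone in replicate 2 against 24.3% of other genes.

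The share of the family that was listed differed between the libraries. A RefSeq gene list (GRCm38.p6) holds 461 protein-coding symbols that meet the rule, and 210 of them (45.6%) were listed in replicate 2, against 36.0% of all protein-coding genes. In replicate 1 it was 105 of them (22.8%), against 25.4%, so the family stood above all genes in replicate 2 and below them in replicate 1. All 214 listed genes matched that list by symbol. Chromosome 7, which carries the largest number of them, had 41 listed members (19.5% of the 210), against 6.91% of other listed genes. Chromosome 17 had 30 (14.3% against 4.91%) and chromosome 13 had 15 (7.14% against 3.58%). Of the 104 RefSeq symbols of the family on chromosome 7, 39.4% were listed in replicate 2, against 45.6% of all 461. On chromosome 17 it was 60% of 50, and on chromosome 13 it was 35.7% of 42. A site was found in 10 of the 41 on chromosome 7 (24.4%), 3 of the 30 on chromosome 17 (10%) and 1 of the 15 on chromosome 13 (6.67%), against 20.5% of all 210 and 48.6% of all listed genes. Another listed member lay within 100 kb of 82 of the 210 genes. Of these neighbours 12 (14.6%) had a site, against 31 of the other 128 (24.2%), with median best coverage of 10 and 11 reads.

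Among genes of like coverage, the mean number of sites in replicate 2 was higher in zinc-finger genes in some classes and lower in another. For genes that peaked at 20 to 29 reads in replicate 2, the mean was 3.21 ± 2.54 sites (SD over 24 zinc-finger genes) against 3.18 ± 2.29 in 1079 other genes. At 30 to 49 reads it was 3.91 ± 3.75 (11 genes) against 4.76 ± 3.19. At 50 to 99 reads it was 7.50 ± 4.04 (6 genes) against 4.68 ± 3.59. With classes set by a gene's median coverage in place of its highest, the difference at 30 to 49 reads, averaged over both libraries, turned to 3.01, and with 1 transcript per gene that at 50 to 99 reads was 1.02. In replicate 1 the 3 zinc-finger genes at 20 to 29 reads had a mean of 2.00 sites against 2.55, and the 2 at 30 to 49 reads had 3.00 against 3.65. Counting every listed position of at least 5 reads, zinc-finger genes minus other genes gave -1.70 positions in replicate 1 and 2.35 in replicate 2 at 20 to 29 reads. At 30 to 49 reads it gave 3.01 and -0.52, and at 50 to 99 reads 1.18 and 3.87. At 20 to 29 and at 30 to 49 reads the libraries thus went opposite ways. Those at 50 reads or more are too few to compare: 2 genes in replicate 1 and, at 100 reads or more, 2 in replicate 2.

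By name, 36 of 186 listed Zfp genes had sites in replicate 2, 146 sites in all. Of 19 Zbtb genes 4 had sites (16), of 3 Zkscan genes 2 had sites (10), and of 2 Zscan genes 1, Zscan21, had sites (4). In replicate 1 every site lay in a Zfp gene. The 10 genes with most sites held 92 of the 176 (52.3%), while 10 genes had a single site. No such share was taken for other genes.

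Zfp207, also known as BuGZ, a microtubule-binding protein of the mitotic spindle that loads Bub3 onto kinetochores, supplied 9 of the 22 sites that passed 20 reads in both libraries. Its gene lies on chromosome 11 (80274105 to 80296559, as deposited). On transcript ENSMUST00000017567.13, position 1452 (GGACA) reached 1.00 in replicate 1 (74 reads) and 0.970 in replicate 2 (181 reads). Position 1458 (GGACC), just beside it, stood at 0.567 and 0.562 over the same reads. From replicate 1 to replicate 2 both positions moved by far less than the gap between them.

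At other positions of Zfp207 the values spread more between libraries. Position 1281 (GGACA) had 0.590 over 70 reads and 0.447 over 169. Position 1688 (GGACA) had 0.426 over 76 reads and 0.525 over 186. On a second transcript, ENSMUST00000165565.7, 4 positions carry the same motifs shifted by 69 nt, and in replicate 2 they had 0.587, 0.986, 0.483 and 0.595, against 0.447, 0.970, 0.562 and 0.525 on the transcript above. The highest site was the same on both transcripts. A read that both transcripts could hold may have been assigned to either, and its part in this was not tested. Position 1757 of the second transcript showed the widest gap between libraries of all 22 shared sites, 0.267 over 30 reads against 0.595 over 79. Position 1380 (GGACC) of the second transcript, with 0.261 and 0.0930, was listed as a site on that transcript alone.

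Zfp706, a gene for a very small zinc-finger protein (chromosome 15, 36997271 to 37008017), was the best covered. Position 290 (GGACA) had 0.970 over 78 reads and 0.963 over 200. Position 1644 (GGACA) had 0.438 over 46 reads and 0.463 over 135. The libraries differed by at most 0.0257 here, and of these positions, which share their motif, the same one was higher in each.

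Zfp385a, an RNA-binding zinc-finger protein (chromosome 15, 103222322 to 103248520), held the widest contrast within 1 motif. Position 2178 (GGACT) stood at 1.00 in both libraries, with 29 reads in replicate 1 and 76 in replicate 2. Position 2210, a short way downstream and also GGACT, had 0.0741 over 29 reads and 0 over 75. The motif letters were thus the same and the covering depth nearly so. The fractions lay at opposite ends in both libraries. A further shared site, 1809 (GGACC), had 0.105 and 0.0476, and the 4 sites with fewer than 20 reads in replicate 1 ranged from 0.0189 to 0.5 in replicate 2.

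Zfp664 and Zfp422 had 3 shared sites each. In Zfp664, position 3725 (AGACT) had 0.5 over 27 reads and 0.429 over 56, and position 3881 (GGACT) had 0.269 over 30 and 0.0741 over 55. The corresponding GGACT on transcript ENSMUST00000134473.1, position 3673, had 0.136 and 0.0556. It was low on both transcripts. In Zfp422, AGACT at position 961 had 0 over 24 reads and 0.0323 over 66, AGACT at position 1998 had 0.444 over 30 and 0.339 over 68, and GGACT at position 1615 had 0.350 over 26 and 0.152 over 66. All 3 sites of Zfp422 stayed below 0.5 in both libraries.

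Zfp358 and Zfp428 had 1 shared site each, both GGACT and both high. Position 300 of Zfp358 had 0.700 over 21 reads and 0.810 over 44. Position 967 of Zfp428 had 0.722 over 26 and 0.842 over 44, and the matching position 946 on its other transcript had 0.625 over 14 reads and 0.692 over 20. Zfp358 also held the only site of replicate 1 that was not a site in replicate 2, position 405 (GGACC), with 0.143 over 22 reads.

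Some genes with many sites in replicate 2, Zfp41, Zfp91, Zfp553 and Zfp60 among them, stayed below 20 reads in replicate 1. So did most genes with a site in replicate 2, since only 7 zinc-finger genes had a site in replicate 1. Zfp41 had 14 sites, from 0.0625 to 0.919. Its GGACT positions 2503 and 2972 had 0.867 over 40 reads and 0.862 over 42, with 1.00 over 8 reads and 0.833 over 10 in replicate 1, while GGACT at 3357 had 0.206 over 45 reads and 0 over 11. The high and the low GGACT of this transcript kept their places in both libraries.

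Zfp91, an unusual zinc-finger protein with ubiquitin ligase activity, had 13 sites from 0.0667 to 0.973. Within the stretch from position 2497 to 2574 it held 5 sites over 38 reads, 3 AGACT at 0.276, 0.130 and 0.0909 and 2 GGACA at 0.700 and 0.440. In replicate 1 the same positions had 0, 0.400 and 0.111 for AGACT and 0.700 and 0.250 for GGACA, over 10 reads each. GGACA thus stood above AGACT in replicate 2 at each of these positions, and in replicate 1 the AGACT at 0.400 lay above the lower GGACA.

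Zfp553 had 10 sites and wide gaps between libraries: position 803 (GGACA) had 0.533 over 20 reads and 0 over 7 in replicate 1, and position 1166 (GGACA) had 0.692 over 21 reads and 0.167 over 7. Position 2968 (GGACA) had 0.857 in both, over 26 and 14 reads. Zfp60 had 8 sites, from 0 to 0.842, all over 20 to 24 reads. Levels read from so few molecules in replicate 1 give an order for single sites only where the gap is wide.

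**Figure D2:**
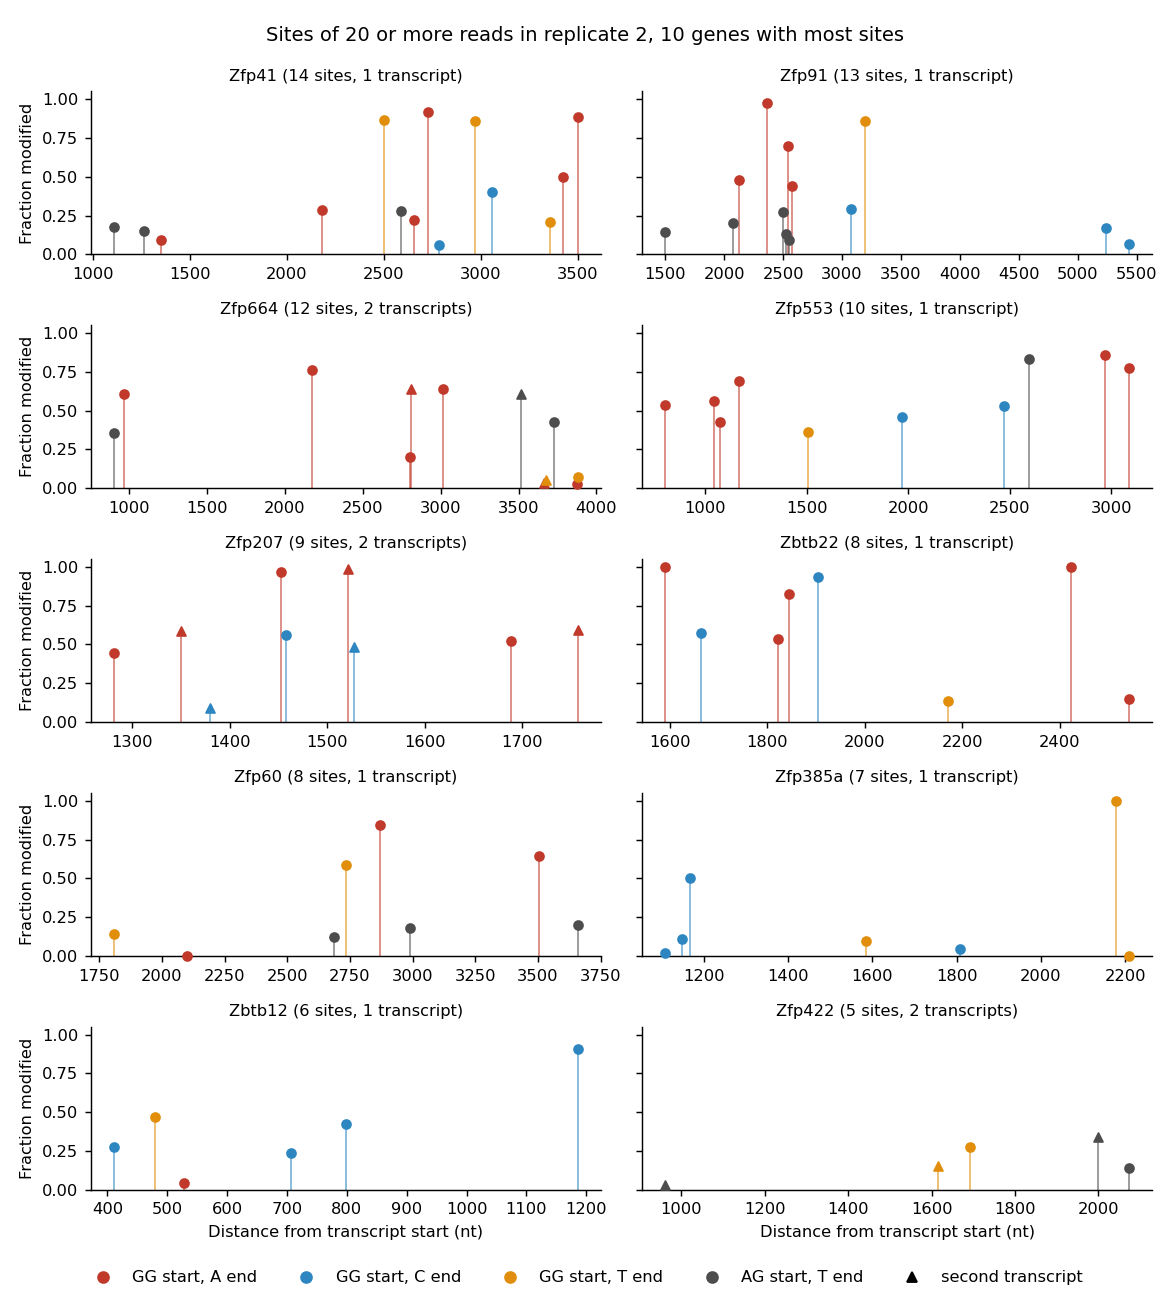
Fraction modified in replicate 2 (vertical axis) against distance from the transcript start (nt) for every site of at least 20 reads in the 10 zinc-finger genes with most sites. Colours give the motif by its starting and ending bases, and triangles mark sites of a second transcript. High and low sites can lie close together on 1 transcript, as in Zfp385a, where sites at 1.00 and 0 of the same motif lie side by side.

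Of the BTB zinc fingers, 11 of 16 on a list of known members were listed in replicate 2, and 4 of them (36.4%) had 16 sites. For this list and those below, the shares over all genes are 36.0% of protein-coding genes listed and 48.6% of listed genes with a site, and 20.5% of the listed zinc-finger genes had one. Zbtb22 had 8, over 22 to 26 reads. Its GGACA positions 1590 and 2424 had 1.00 in replicate 2 and 1.00 over 8 and 9 reads in replicate 1, whereas its GGACA at 2543 had 0.15 over 26 reads and was not listed in replicate 1. Zbtb12 had 6, among which GGACC at 1186 had 0.906 over 34 reads and 1.00 over 10, and GGACA at 528 had 0.0435 over 30. In Zbtb12 the motif ending in C was thus above the one ending in A.

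Zbtb33 encodes Kaiso, which binds methylated DNA. It had 1 site at 0.462 over 25 reads, and Zbtb39 had 1 at 0.938 over 24 reads, neither listed in replicate 1. Zbtb17 (Miz-1, a partner of Myc) reached 7 and 12 reads in replicates 1 and 2. In replicate 2 alone, Zbtb16 (PLZF) reached 10 reads, Zbtb18 (RP58), a transcriptional repressor required for neuronal differentiation, reached 7, Zbtb14 reached 9, Zbtb45 reached 12, and Zbtb10 and Zbtb11 reached 5 and 6. These 7 had no site.

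A list of 9 zinc-finger genes was drawn up for proteins that act on RNA or ribosomes. It includes Zfp207, described above by its spindle role. Of the 9, 7 were listed in replicate 2 and 6 (85.7%) had sites, against 48.6% of all listed genes. Of their 27 sites 9 lay in Zfp207, and 12 were shared, all in Zfp207 and Zfp385a. Zfp622, a factor of large ribosomal subunit maturation, had GGACA at position 1666 at 1.00 over 35 reads and 1.00 over 15, and GGACA at 1513 at 0.524 over 35 and 0.636 over 14. Zfp106, an RNA-binding protein needed for motor neuron upkeep, had AGACT at 8813 at 0.814 over 61 reads and 0.8 over 14, and AGACT at 7041 at 0 in both over 36 and 7. In each of these genes a pair of positions with the same motif kept its order in both libraries.

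Zfp598, the ubiquitin ligase that senses collided ribosomes, had 1 site at 0.692 over 21 reads, with 0.333 over 6 in replicate 1. Zfp638 had 2, at 0.125 and 0.286. Zfp326 reached 9 reads in replicate 2 with no site. Zfp36 and Zfp346 were not listed.

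Of 10 stem cell and neural regulators, 8 were listed in replicate 2, and 2 (25%) had sites, 4 in all, against 48.6% of all listed genes and 20.5% of the zinc-finger genes. Zfp503, a transcriptional repressor with a role in optic fissure closure, had 10 listed positions in replicate 1 and 2 sites in replicate 2, GGACT at 0.133 and GGACC at 0.333 over 21 reads each. In replicate 1 these had 0 and 0.167 over 19 reads, so they were low in both libraries. Zfp521, a regulator of neural progenitors, had 2 sites, at 1.00 over 20 reads and 0.333 over 22. Without reaching 20 reads in replicate 2, Zfp423 had 19, Zfp462 had 17, Zfp322a had 13, Zfp703 had 10, and Zfp281 and Zfp57, the latter a keeper of imprinted methylation, had 9 each. Zfp42, a marker of pluripotent cells, and Zfp217 were not listed.

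Genes of the partners through which these proteins act were counted the same way. All 13 genes on a list of KRAB and Trim28 partners were listed in replicate 2 and 11 (84.6%) had 49 sites, 14 of which were shared, against 48.6% of all listed genes with a site. Trim28, the corepressor that KRAB domains bind, reached 176 and 393 reads, with a median fraction of 0.163 over 6 sites in replicate 1 and 0.261 over 3 in replicate 2. Setdb1, the histone methyltransferase it brings, reached 16 reads in replicate 2 with no site. Of 8 BTB partners 6 were listed and 2 (33.3%), Cul3 and Hdac3, had 6 sites. Of 30 other C2H2 genes that the naming rule leaves out, 23 were listed and 8 (34.8%) had 44 sites, among them Ctcf with 9 and Yy1 with 4.

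Fractions differed by motif, and GGACA was the highest, as in other genes. In replicate 2 the median fraction of zinc-finger sites was 0.575 for GGACA (58 sites), 0.348 for GGACC (42), 0.333 for GGACT (41) and 0.269 for AGACT (35). In replicate 1 it was 0.656 for GGACA (8), 0.261 for GGACC (5), 0.350 for GGACT (7) and 0.444 for AGACT (3). It led in both libraries, and the order of the other motifs changed between them.

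Against other genes the difference in median, averaged over both libraries, was 0.102 ± 0.00311 for GGACT (SD, n = 2), with 0.350 and 0.333 in the zinc-finger genes and 0.250 and 0.229 in other genes. For GGACC it was 0.0802 ± 0.0529, with 0.261 and 0.348 against 0.218 and 0.231. GGACT and GGACC were higher in zinc-finger genes in both libraries. For GGACA it was -0.0552 ± 0.0519, with -0.0185 and -0.0920 in replicates 1 and 2, of which the former is within the spread, and for AGACT it was 0.0919 ± 0.121, within the spread. These medians rest on 3 to 8 sites per motif in replicate 1, and they moved with the counting. With each gene counted once, the difference was 0.0108 for GGACC, 0.2003 for GGACT and -0.0038 for GGACA. The GGACA difference was above 0 with a minimum of 5 reads (0.0417) or 50 reads (0.0179), and that of AGACT was -0.05 with 5 reads. The GGACT difference was 0.0276 with 5 reads.

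Within classes of like coverage in replicate 2, the median of GGACC was higher in zinc-finger genes in 5 of 6 classes and lower in 1. At 20 to 29 reads it was 0.389 (23 sites) against 0.250, and at 50 to 99 reads it was 0.0930 (9 sites in 4 genes) against 0.234. GGACA was lower in 4 of 6 classes, higher in 1 and equal in 1. AGACT was lower in 3 of 5 and higher in 2. GGACT was higher in 3 of 5, lower in 1 and equal in 1. In replicate 1, where the classes from 20 reads up hold 1 to 6 zinc-finger sites each, GGACA was higher in 4 of 5 classes and lower in 1, and GGACC likewise. GGACT was higher in 3 of 4 and lower in 1, and AGACT was higher in 2 of 4, lower in 1 and equal in 1. No motif kept 1 direction in every class.

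The share of zinc-finger sites with a fraction of at least 0.5 in replicate 2 was 60.3% for GGACA, against 64.1% of all GGACA sites. It was 23.8% for GGACC against 21.4%, and 14.3% for AGACT against 24.1%. For GGACT it was 43.9%, or 18 of 41 sites, against 23.2%. The shares of GGACA and GGACC are near that of all sites, that of AGACT rests on 5 sites, and that of GGACT stands further off.

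**Figure D3:**
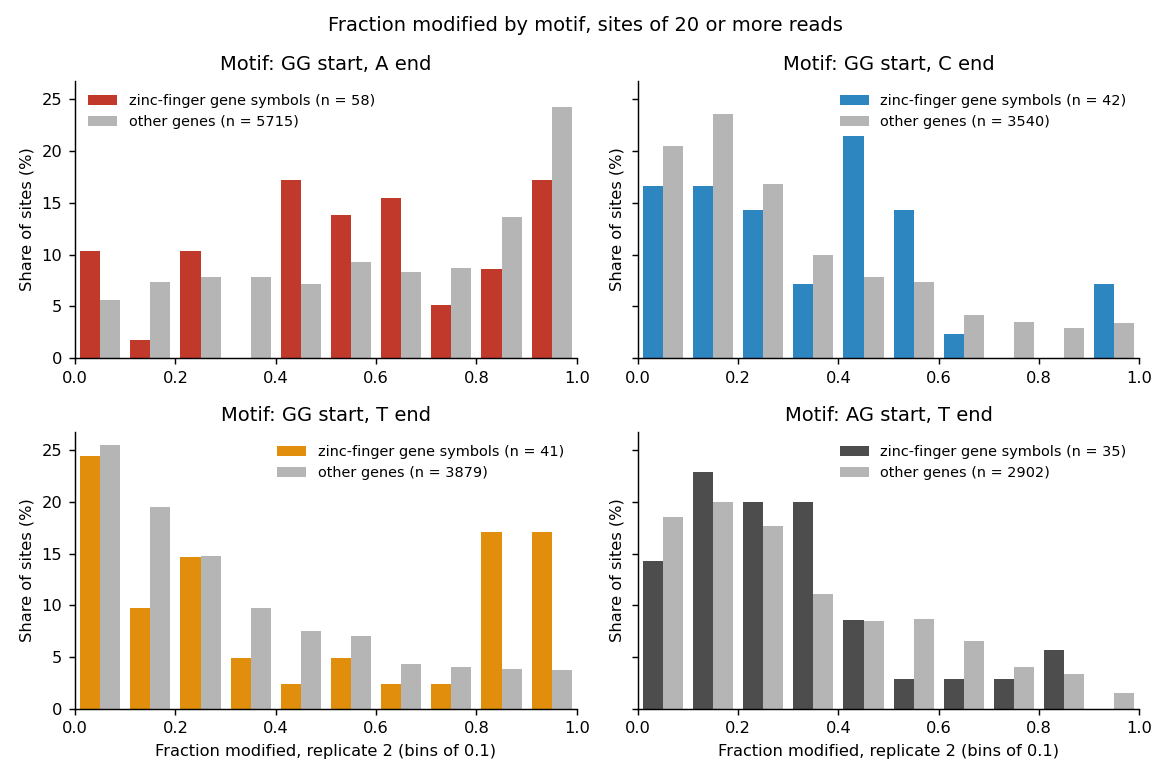
Share of sites (%) in bins of fraction modified in replicate 2, for zinc-finger sites (colour) and sites of other genes (grey), 1 panel per motif named by its starting and ending bases. The motif with GG at its start and T at its end has 34.1% of its zinc-finger sites at 0.8 or above, against 7.58% in other genes.

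The GGACT sites fell toward both ends of the scale. A look at the ends, chosen after the values were seen, found 14 of the 41 sites, in 11 genes, at 0.8 or above in replicate 2. This is 34.1%, against 7.86% of all GGACT sites. Another 15 sites, in 12 genes, stood at 0.2 or below, 36.6% against 46.4% in other genes. The high end was therefore fuller and the low end somewhat emptier than in other genes.

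The sites at the high end were high in replicate 1 too. Of the 14, 13 were listed there, with a median of 0.857 and a range of 0.571 to 1.00. Most of these had fewer than 20 reads there, down to 5 in Zfp521, and only those of Zfp358, Zfp385a and Zfp428 had more. Of the 15 low sites 12 were listed, with a median of 0.0825 and a highest value of 0.364. The 2 sets did not overlap in the library that had not been used to divide them. GGACT sites of other genes were not divided in this way, so this shows nothing particular to zinc-finger genes. Fractions of other genes also went together between libraries, with a Pearson's r of 0.847 where replicate 1 had 5 to 19 reads.

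Both ends occurred within the transcripts of Zfp771 and Zfp334. In Zfp771, GGACT at 1330 had 0.923 over 38 reads and 0.923 over 14, GGACT at 1384 had 0.936 and 0.8, and GGACT at 881 had 0.0667 and 0.0909. In Zfp334, GGACT at 4611 had 0.833 over 20 reads and 0.857 over 10, and GGACT at 4369 had 0 over 20 and was not listed in replicate 1. A further GGACT of Zfp334, at 4440, had 0.909 over 20 reads but 0.571 over 10 in replicate 1. In Zfp146, GGACT at 634 had 0.889 over 36 reads and 1.00 over 12, and GGACT at 580 had 0.250 over 36 and 0 over 12. In Zfp146 the lower site thus lay between the ends in replicate 2. In each of these transcripts the higher and the lower site carry the same letters.

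The excess at the high end was not even across depth or library. At 30 to 49 reads in replicate 2 the median of GGACT was 0.842 (13 sites in 7 genes) against 0.229, while at 50 to 99 reads it was 0.0952 (5 sites in 3 genes) against 0.244. Over all listed GGACT positions of at least 5 reads, 13.3% of the zinc-finger positions were at 0.8 or above in replicate 2 against 9.33% in other genes, and 16.4% against 10.8% in replicate 1. At 20 reads in replicate 1 it was 1 of 7 sites (14.3%) against 9.80%. The gap to other genes was thus smaller in these counts than over the sites of replicate 2.

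Zinc-finger sites lay further from the transcript start, at a median of position 2048 against 1324 in other genes in replicate 2. Beyond position 2000, 8 of 21 zinc-finger GGACT sites (38.1%) were at 0.8 or above, against 6.36% in other genes. Between 1000 and 1999 they were 3 of 12 (25%) against 8.48%. Below position 1000 they were 3 of 8 (37.5%) against 7.78%. In replicate 1, with 7 sites in all, the shares were 0% of 2 sites below position 1000 against 10.3%, 0% of 1 site between 1000 and 1999 against 10.4%, and 25% of 4 sites beyond 2000 against 7.53%. The share was thus above that of other genes in every stretch in replicate 2 and in 1 of 3 in replicate 1.

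The replicates gave like fractions where both were well covered. Subtracting replicate 1 from replicate 2 at the 22 shared sites left a median of -0.0219 with an SD of 0.127, against an SD of 0.0995 at 5199 shared sites of other genes. Replicate 2 gave the higher fraction at 7 sites, the lower at 14 and an equal one at 1. The 1 site that differed by more than 0.2 makes 4.55%, against 5.94% of all 5221 shared sites. Pearson's r was 0.931 and Spearman's rho 0.885 across the 22 sites, which share transcripts and reads and are not independent.

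Where replicate 1 had only 5 to 19 reads, at 108 further sites, the SD was 0.208 and 31 sites (28.7%) differed by more than 0.2, against 23.0% in other genes. Pearson's r was 0.797. The widest gap was in Zfp719, where GGACT at 3020 had 1.00 over 6 reads and 0.273 over 20. The remaining 46 of the 176 sites were not listed in replicate 1. Most zinc-finger sites therefore have no well covered second measurement.

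**Figure D4:**
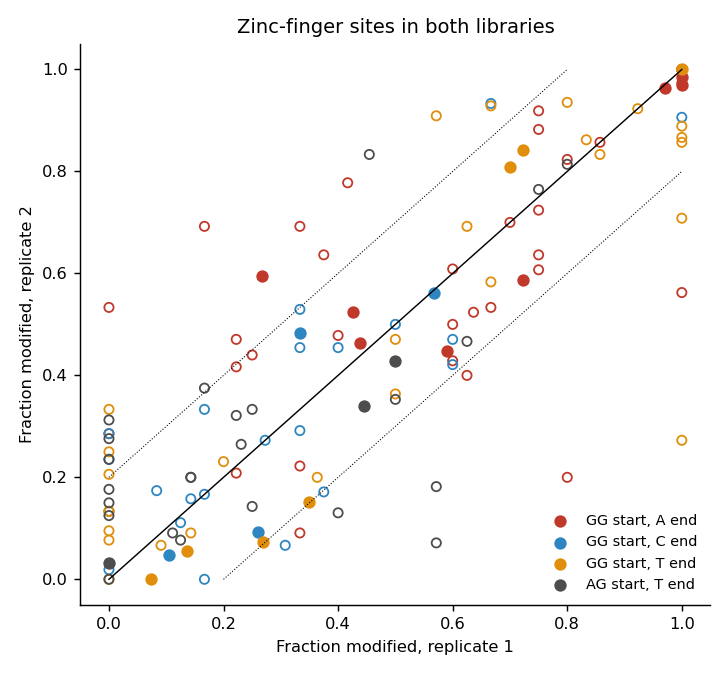
Fraction modified in replicate 2 against replicate 1 for the 130 zinc-finger sites listed in both, with colours for the motif by its starting and ending bases. Filled points are the 22 sites with at least 20 reads in both and open points the 108 with 5 to 19 reads in replicate 1, and the dotted lines mark a difference of 0.2, which 1 filled point and 31 open points exceed.

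Genes listed under more than 1 transcript allow the same place to be read again. For 5 genes with sites on more than 1 transcript, 13 pairs of sites had the same motif at a constant shift. The median gap within a pair in replicate 2 was 0.0909 and the widest 0.196. The widest pair was AGACT of Zfp422, 0.143 over 21 reads against 0.339 over 68, and the GGACA pair of Zfp664 at 3874 and 3666 had 0.0244 and 0.0345. These 13 gaps are of the size of the spread between libraries.

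C2H2 fingers repeat every 28 codons, or 84 nt, so a motif inside the repeat can recur at that distance. Counting pairs of the same motif from 5 reads up was chosen after the data were seen. In replicate 2, of 1338 pairs of zinc-finger positions with the same motif on 1 transcript, all of at least 5 reads, 62 (4.63%) lay a multiple of 84 nt apart, against 1.39% of all such pairs and 1.28% in other genes. In replicate 1 it was 9 of 260 (3.46%), against 1.42% of all pairs and 1.39% in other genes. If distances fell evenly, 1.19% would be at a multiple of 84. The share stood above that of other genes in both libraries. Of the same pairs, 33.4% lay at a multiple of 3 nt in replicate 2 against 37.4% in other genes, and 33.1% against 38.5% in replicate 1. AGACT pairs went the other way in both libraries, and GGACT pairs in replicate 1.

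AGACT made 37 of the 62 pairs in replicate 2 and 4 of the 9 in replicate 1. In replicate 2, 37 of 378 AGACT pairs (9.79%) lay at a multiple of 84 nt against 1.30% in other genes, and in replicate 1 it was 4 of 54 (7.41%) against 1.33%. The shares for GGACA were 2.85% and 3.41%, for GGACT 2.48% and 3.23%, and for GGACC 2.05% and 0% in replicates 2 and 1. AGACT was also a larger part of the zinc-finger positions, 28.1% in replicate 2 against 19.7% in other genes and 24.8% against 19.7% in replicate 1, whereas GGACC was 15.1% against 21.1% in replicate 2 and 21.3% against 21.9% in replicate 1.

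**Figure D5:**
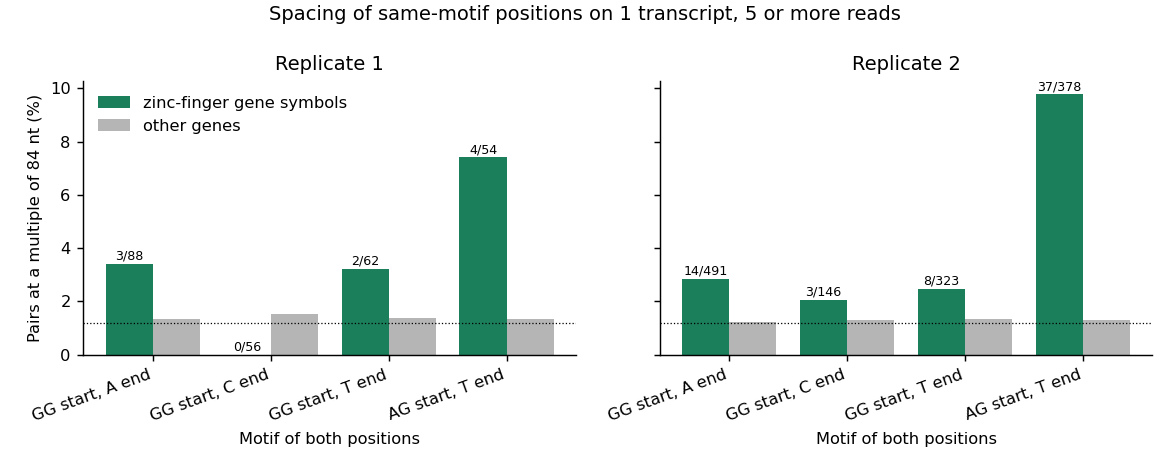
Share of same-motif pairs of positions on 1 transcript whose distance is a multiple of 84 nt (%), by motif, for zinc-finger genes (green, with the count of pairs) and other genes (grey), in each replicate. The dotted line is at 1.19%, the share of evenly spread distances, and the motif with AG at its start reaches 9.79% in replicate 2 and 7.41% in replicate 1.

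The genes named here were chosen after their spacing was seen. Zfp760 had AGACT at positions 1169, 1253, 1589 and 2009, each a multiple of 84 nt from the others, with fractions of 0.600, 0, 0.333 and 0 over 10 or 11 reads. Zfp729b had AGACT at 988, 1492, 1996 and 2332, with 0, 0.250, 0 and 0.250 over 5 reads. Zfp157 had AGACT at 972, 1308 and 1476 in both libraries, at 0.333, 0.333 and 0.154 over 14 to 18 reads in replicate 2 and at 0, 0.667 and 0 over 7 reads in replicate 1. Fractions at these AGACT repeats were mostly low, as were those of AGACT in general. Over all AGACT positions of at least 5 reads in replicate 2 the median was 0.2 in zinc-finger genes and 0.25 in other genes.

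The spacing was read almost wholly from shallow positions. The lower coverage of a pair had a median of 7 reads in both libraries. With at least 20 reads, 1 of 133 same-motif pairs (0.752%) lay at a multiple of 84 nt in replicate 2, against 1.41% in other genes, and 0 of 10 did in replicate 1, against 1.35%. The share was thus not above that of other genes at this coverage. Nor was it over pairs of sites of any motif, the measure first planned. There it was 3 of 451 (0.665%) against 1.32% in replicate 2 and 0 of 25 against 1.32% in replicate 1. Zfp267, Zfp60, Zfp729b and Zfp760 gave 6 pairs each, 24 of the 62, and the 62 lay in 36 genes. Only 8 pairs, in 6 genes, were listed in both replicates. Genes of this family share long stretches of sequence, and a read placed on the wrong copy would be counted there, which was not tested.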

How the data were processed

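The values are those of the tables the authors deposited for 2 nanopore direct RNA libraries of 1 group. Coverage is a deposited whole-number count of reads per position, with none below 5, and the fraction modified is a deposited fraction from 0 to 1 whose denominator is not given, so no interval or read test was set on a fraction. Allowing for the rounding of the deposited fractions, only 39.5% and 36.1% of them in replicates 1 and 2 were whole multiples of 1 over the coverage. The base caller, aligner, modification caller and transcript reference are not given in the sources used here. Per the submitters' processing notes the genome build is mm10, but only 3.06% of 7972 matched gene starts lay within 1000 bases of those in a GRCm38.p6 list, so the build of the printed coordinates is not settled. The listed end of a position was used as its number. Within the first 46 nt, the motif's adenosine was found 1 base before that end in 23 of 108 positions set against RefSeq sequence of that build.

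Members, role lists and thresholds were chosen with earlier results of these data known. Positions were matched on transcript version and end. With 1 group and 2 libraries no test was run: values are per library, and SDs over both libraries measure their spread alone. Sites are not replicates. Named genes are those with a site of 20 reads in both libraries, the 10 with most sites in replicate 2 (at 5 sites each Zfp422, Zfp771, Zkscan3, Zkscan17 and Zfp334 tie for the last place, given to Zfp422 by coverage), the extreme shared sites per motif, and listed members of the role lists. Zfp146, Zfp157, Zfp267, Zfp334, Zfp410, Zfp719, Zfp729b, Zfp760, Zfp771 and Zscan21 fall outside this rule and were named after their values were seen. Python 3.11.15, numpy 2.4.6, pandas 2.3.3 and matplotlib 3.10.9 were used, and the counting and spacing steps were tested on simulated data. Alternatives were the coverage minimum, 1 transcript per gene, matching within 5 nt, coverage classes and leaving out a library.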

Additional observations from a re-analysis of the deposited data

Results flagged for a closer look

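The minus tables, which hold 11 positions in replicate 1 and 35 in replicate 2, were not used above. In replicate 1 they list 1 zinc-finger position, in Zfp410, an activator of Chd4, at position 1999 of a transcript, with GGACC at a fraction of 0.667 over a coverage of 8 reads. The tables list no position below 5 reads. That this position lies above the 3 reads that a count of 0 allows is therefore fixed by construction and shows nothing. Replicate 2 lists no zinc-finger position in its minus table. In the plus table of replicate 2 the same gene had 2 sites, AGACT at 0.765 and GGACT at 0.231 over 20 reads each.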

How the results depend on the processing

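No paired analysis was possible because the samples form 1 group. Of 69 recomputed values, those without a library set aside, 32 stayed within the limit set for them (the spread, or 1.5 times for a count) and 37 moved, and the cause was not tested except that a coverage minimum changes which positions count. With 5 reads the counts were 1394 positions, 210 genes and 342 shared positions, and with 50 reads 28, 8 and 5. With 1 transcript per gene 161 sites and 16 shared sites were left. Median fractions moved to 0.2 (AGACT), 0.708 (GGACA) and 0.264 (GGACT) with 5 reads, 0.683 (GGACA) with 50 and 0.437 (GGACT) with 1 transcript per gene. Differences from other genes became -0.05 (AGACT), 0.0417 (GGACA) and 0.0276 (GGACT) with 5 reads, 0.0179 (GGACA) with 50, -0.111 (GGACA), 0.0264 (GGACC) and 0.199 (GGACT) with 1 transcript per gene, and 0.115 (GGACT) with other genes weighted by coverage class. The GGACA difference thus turned at 5 and 50 reads and the AGACT difference at 5 reads, while, a library left out not counted, GGACC kept its sign in 5 of 5 alternatives and GGACT in 4 of 4. Sites per gene, members minus others, averaged over libraries, were -0.260, -0.751 and 2.43 at 20 to 29, 30 to 49 and 50 to 99 reads. At 100 or more reads, from replicate 2 alone, the difference was 1.64. With 5 reads it became 0.326 at 20 to 29 and 1.24 at 30 to 49, where the direction turned in both, and 0.693 at 100 or more. With 1 transcript per gene it became 1.02 at 50 to 99 and -0.105 at 100 or more, where the direction turned. With classes by median coverage it became 3.01 at 30 to 49, 1.31 at 50 to 99 and -1.09 at 100 or more. The direction there turned at 30 to 49 and at 100 or more. The share of shared sites past 0.2 was 34.5% with 5 reads, against 21.9% in other genes. It was 0% with 50 reads and 0% with 1 transcript per gene. The share in other genes was not taken for these 2 settings or with 20 reads in replicate 2 only. The share of all pairs at a multiple of 84 nt, averaged over libraries, was 0.333% with 20 reads and 2.13% with 5 reads. Alternatives chosen after seeing the data gave medians of 0.242 (GGACC) and 0.450 (GGACT) and differences of 0.0108 (GGACC) and 0.2003 (GGACT) with each gene counted once, 24.6% past 0.2 with 20 reads in replicate 2 only, and 4.05% at a multiple of 84 nt with 5 reads and the same motif. Leaving out a library gives the other's own value, which cannot pass a spread made from the same libraries and so shows nothing about stability: the AGACT difference was 0.006 or 0.178 and that of GGACA -0.0920 or -0.0185. AGACT and GGACT at 50 reads, with no site in replicate 1, were not run. Depth is a limit, since 108 of 176 sites had 5 to 19 reads in replicate 1.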
